A study of Laodelphax striatellus with 6 samples.

Results

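Insect moulting and reproduction are run by 2 lipid hormones, the ecdysteroids and juvenile hormone, together with the peptides that govern their release, and 41 of 59004 assembled genes of the small brown planthopper Laodelphax striatellus were described here because their protein description names part of this system. They were chosen by words in that description, such as ecdysone, juvenile hormone, farnesyl, hormone receptor, nuclear receptor, neuropeptide or the P450 names of ecdysteroid synthesis, and no measured value took part in the choice. The study compared whole bodies of planthoppers labelled WT, treated with β-asarone, a plant phenylpropanoid (3 libraries), or left as control (3 libraries), to ask how the insect's detoxification genes respond. Poly(A) RNA was sequenced, and values are TPM, the length-corrected share of a library in millionths. The labels give no dose, exposure time, sex, stage or number of insects, and leave unsaid whether replicate libraries hold different insects. The p-values therefore cover the scatter among these 6 libraries, and that scatter may be technical. Depth is unknown because TPM keeps none.

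Ecdysteroids are made from dietary sterol by a chain of P450 enzymes, bind a nuclear receptor pair, and start a cascade in which early transcription factors switch on later ones before each moult. Juvenile hormone is a sesquiterpenoid built from farnesyl pyrophosphate; it keeps a moult from leading to the adult form in nymphs and supports egg production in many adult insects. Neuropeptides such as the allatostatins set how much of it the corpora allata release. Planthoppers moult from nymph to adult with no pupa, and a whole-body library mixes all tissues, so fewer cells of a type and less RNA per cell cannot be told apart.

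Of the 41 rows, 4 were of ecdysteroid synthesis, 5 of the ecdysone receptor and its response factors, and 7 of other nuclear receptors. Juvenile hormone synthesis had 3, juvenile hormone binding and breakdown 3, and neuropeptides and peptide receptors 14. The other 5 carry a matching word and were placed in none of these roles. Several genes were split over assembled rows, and the 41 rows carried 33 distinct descriptions. The best hit was the brown planthopper Nilaparvata lugens for 25 rows, L. striatellus itself for 11 and the white-backed planthopper Sogatella furcifera for 1. None of the 41 was described as ultraspiracle, Krüppel homolog, broad-complex, methoprene-tolerant, juvenile hormone acid methyltransferase or juvenile hormone esterase. Of the 15038 rows of the table with a best hit in L. striatellus, 14710 were named only as hypothetical proteins, so a member of the system can stand under a name that says nothing of it.

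Together the 41 rows made up 0.0297% to 0.039% of a library, and this small share was unevenly held. Farnesoic acid O-methyltransferase, CYP306A1 and farnesol dehydrogenase accounted for 62.3% of it, with means over the 6 libraries of 107, 62.4 and 42.2 TPM. The nuclear receptor HR3 followed at 27.1 TPM and the juvenile hormone binding protein at 23.0 TPM. A row was tested where it averaged 1 TPM or more, which 19 of the 41 did, at means of 1.02 to 107 TPM. The other 22, among them 11 of the 14 neuropeptide and receptor rows, had means of 0.218 to 0.942 TPM.

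Control replicate 2 stood apart from the other libraries in level. The median over all tested rows was 2.23 TPM there, while the other 5 lay between 2.85 and 3.37 TPM, and 46.6% of all tested rows had their lowest value in it. So did 12 of the 19 tested rows of the hormone system. Of all 24816 tested rows 1, with no description, passed the threshold between treated and control insects.

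**Figure D1:**
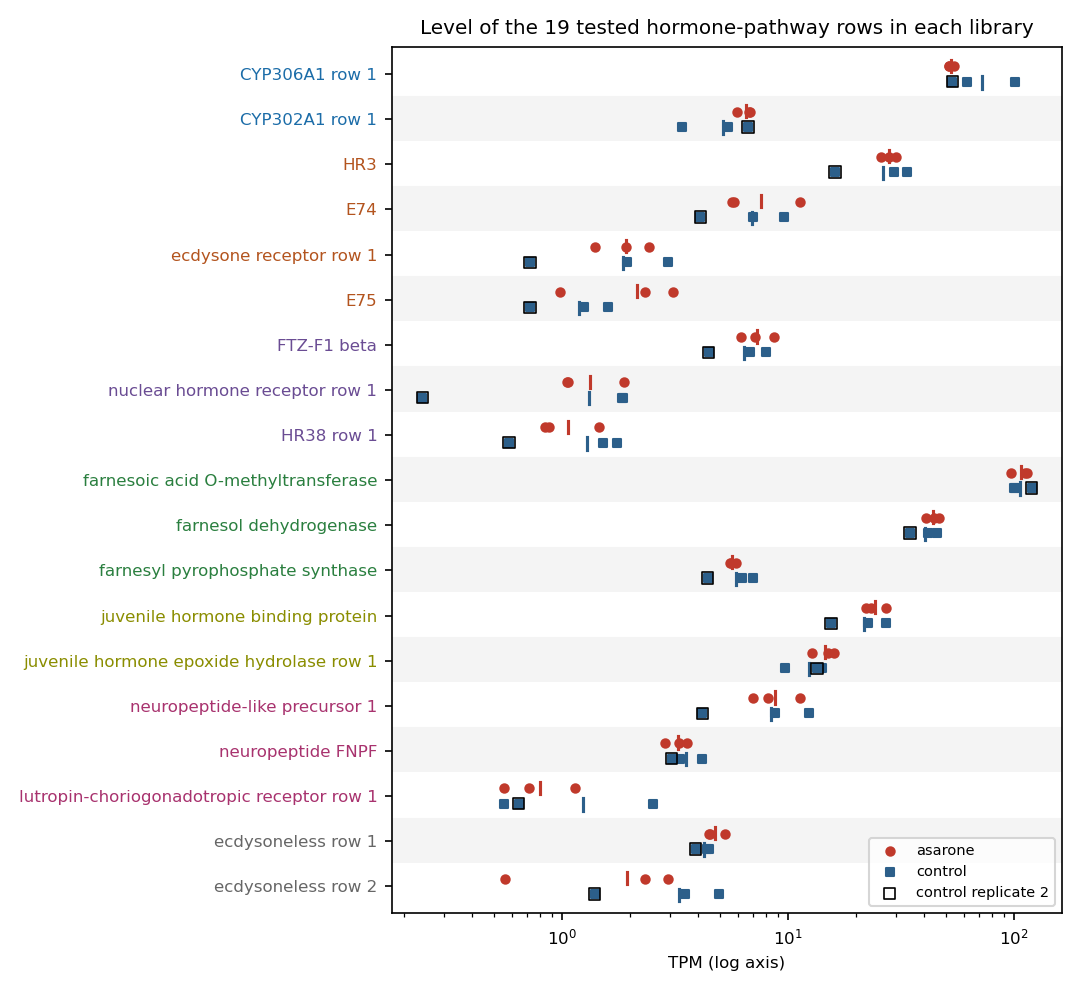
TPM (log axis) of the 19 tested rows, with asarone libraries as circles above control libraries as squares; ticks mark group means, a black outline marks control replicate 2, and label colours mark the role groups. Circles and squares overlap in every row except the first ecdysoneless row, and control replicate 2 is the lowest point in 12 rows.

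No row of the hormone system passed the test between asarone-treated and control insects. Of the 19 tested, 0 passed an adjusted p of 0.05 in limma, a linear model of log2(TPM + 1) fitted over all rows, where 0.00403% of all tested rows passed; their adjusted p-values ran from 0.98 to 0.995. An unadjusted limma p under 0.05 was reached by 0 of the 19 and by 3.47% of all tested rows. Fitted changes were positive for 13 and negative for 6, with a median log2 change of 0.12, beside 62.8% positive and a median of 0.08 over all tested rows; after median-of-ratios scaling 50.8% of all rows were positive, and 12 of the 19. Without control replicate 2 the fit had 20 of the 41 rows to test, of which 6 were positive and 14 negative. Their median was -0.17, against -0.03 over all rows, of which 43.3% were positive in that fit. Of the 13 positive changes, 7 became negative on leaving out that library. All 19 confidence intervals included 0. For 14 of them the whole 95% interval lay within 1 on the log2 scale, that is within a doubling or halving of TPM + 1, and for 5 it reached further. In rows of a few TPM or less such an interval covers larger changes of TPM itself, so the count does not bound those.

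**Figure D2:**
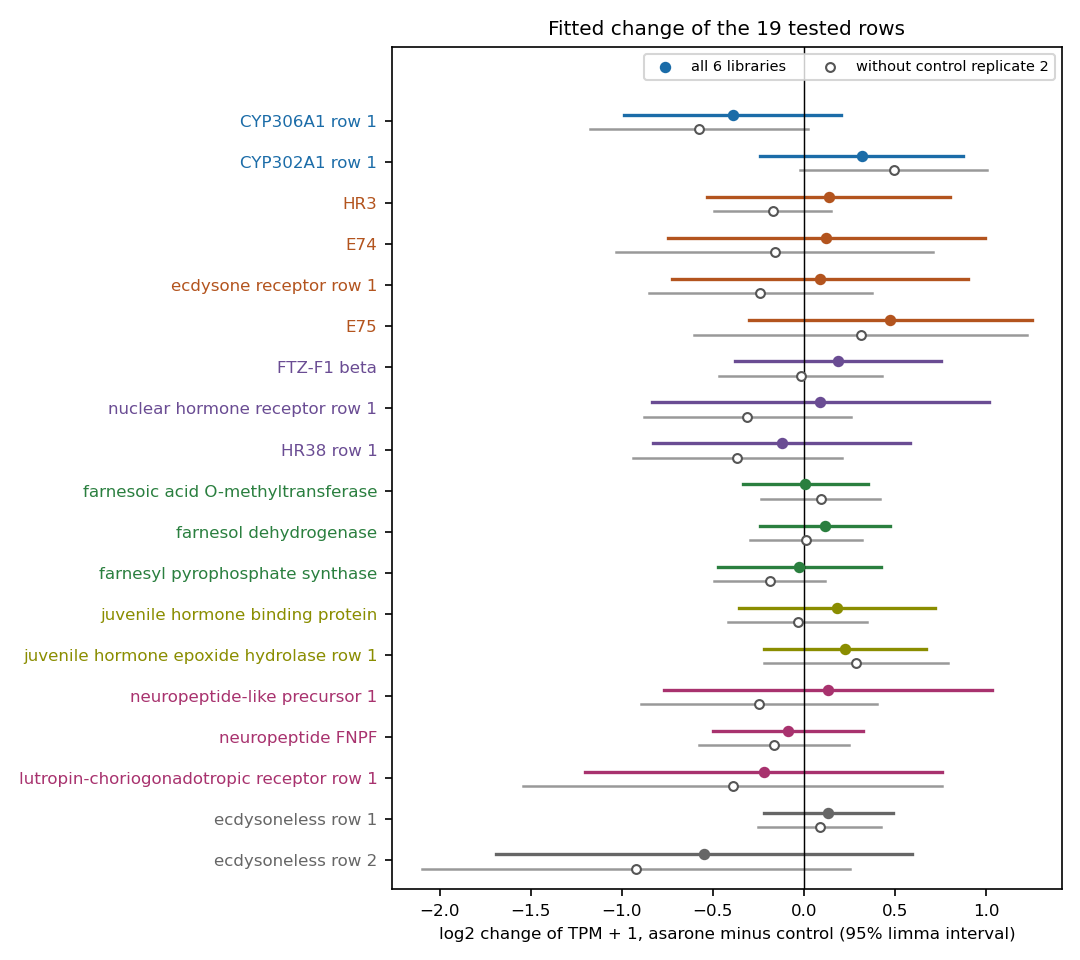
Fitted log2 change of TPM + 1 (asarone minus control) with 95% limma intervals for the 19 tested rows, coloured by role, from all 6 libraries (filled points) and without control replicate 2 (open points). Every interval from all 6 libraries crosses 0, and 7 points change side when control replicate 2 is left out.

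Ecdysteroid synthesis was represented by CYP306A1 and CYP302A1, P450 enzymes known in Drosophila as phantom and disembodied, which add hydroxyl groups to the sterol side chain. CYP306A1 (TRINITY_DN2410_c0_g1) had 54.47, 51.76 and 51.74 TPM in asarone replicates 1, 2 and 3, against 101.12, 53.39 and 61.67 TPM in control replicates 1, 2 and 3. The treated libraries lay close together and overlapped control replicate 2, and control replicate 1 was far above the other 5 libraries. The log2 change was -0.39 (SE 0.25, 95% interval -0.99 to 0.20, limma adjusted p = 0.98), the smallest unadjusted p of the 19, at 0.161 in limma. Without control replicate 1 the change was -0.12, and without control replicate 2 it was -0.58.

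CYP302A1 (TRINITY_DN5061_c0_g2) had 5.94, 6.81 and 6.70 TPM in asarone libraries and 3.40, 6.64 and 5.40 TPM in control libraries. Here control replicate 1 was the lowest of the 6, and control replicate 2 lay among the treated values. The log2 change was 0.32 (SE 0.23, 95% interval -0.24 to 0.88, limma adjusted p = 0.98), and it was 0.10 without control replicate 1. Thus the 2 enzymes had fitted changes of opposite sign, and in both the library farthest from the rest was control replicate 1. The other 2 rows of this group lay under the filter. A second row of CYP306A1 (TRINITY_DN19289_c1_g1) had 0.73, 0.83 and 0.95 TPM in treated and 0.66, 0.87 and 0.51 TPM in control insects. The row named CYP302A1v2 (TRINITY_DN5061_c0_g4), which may share reads with CYP302A1, was listed at 0 in replicate 1 of both groups and at 0.51 to 1.12 TPM in the other 4 libraries.

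The ecdysone receptor, the nuclear receptor that binds the hormone, was split over 2 rows. The more abundant row (TRINITY_DN8816_c0_g2) had 1.91, 2.42 and 1.40 TPM in asarone libraries and 2.94, 0.72 and 1.93 TPM in control libraries. All treated values lay inside the range of the control values. The other row (TRINITY_DN9812_c0_g2) had 1.08, 0.28 and 0.93 TPM in treated and 0.62, 0.38 and 0.58 TPM in control insects. Summed over both rows, an alternative chosen after the data were seen, the receptor stood at 2.67 ± 0.331 TPM in treated and 2.39 ± 1.23 TPM in control insects (SD, n = 3 each; log2 change 0.18, 95% interval -0.55 to 0.92, limma adjusted p = 0.981).

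Among the factors of the ecdysone response, E75 had the largest positive fitted change of the 19 rows, without passing the test. This heme-binding nuclear receptor is an early target of the hormone in Drosophila. Its row (TRINITY_DN374_c1_g1), whose best hit is the wasp Microplitis demolitor, had 3.10, 2.32 and 0.98 TPM in asarone libraries and 1.25, 0.72 and 1.59 TPM in control libraries. Asarone replicates 1 and 2 were above all controls, and asarone replicate 3 was below control replicates 1 and 3. The log2 change was 0.48 (SE 0.32, 95% interval -0.30 to 1.25, limma adjusted p = 0.98). Leaving out single libraries moved the change between 0.25, without asarone replicate 1, and 0.78, without asarone replicate 3, where the limma p was 0.0323 unadjusted and 0.977 adjusted.

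E74 and HR3 were more abundant and did not separate the groups. E74, an ETS-domain transcription factor and another early gene (TRINITY_DN4556_c0_g1), had 11.33, 5.66 and 5.78 TPM in treated and 9.55, 4.09 and 7.01 TPM in control insects. Replicate 1 was the highest library in each group. HR3, a nuclear receptor of the later wave that is needed for moulting in several insects (TRINITY_DN1737_c0_g1), had 27.98, 29.94 and 25.75 TPM in asarone libraries and 33.50, 16.15 and 29.55 TPM in control libraries. All treated values lay inside the control range. Its log2 change was 0.14 with all libraries (95% interval -0.53 to 0.80) and -0.17 without control replicate 2. The ecdysone receptor, E75, E74 and HR3 all had their lowest value in control replicate 2, and their fitted changes without it were -0.24, 0.31, -0.16 and -0.17.

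**Figure D3:**
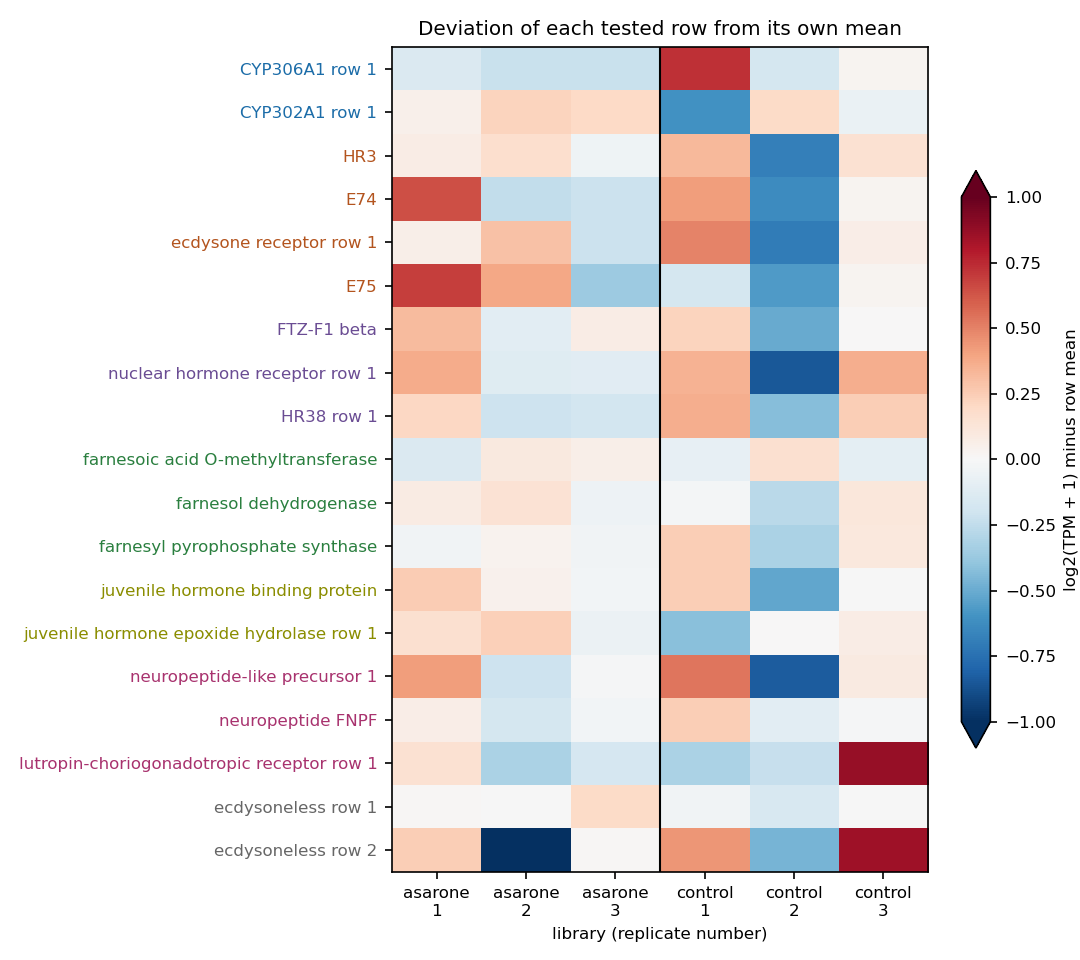
Deviation of log2(TPM + 1) from each row's own mean over the 6 libraries, for the 19 tested rows (vertical) in each library (horizontal, asarone left of control; blue below, red above the mean). The control replicate 2 column is blue for most nuclear receptors and for neuropeptide-like precursor 1, while CYP306A1 and CYP302A1 depart most in control replicate 1, in opposite directions.

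Other nuclear receptors gave 3 tested rows. FTZ-F1 beta (TRINITY_DN1256_c0_g1), an orphan receptor known in Drosophila as HR39, had 8.63, 6.17 and 7.14 TPM in asarone libraries and 8.00, 4.45 and 6.75 TPM in control libraries. The groups overlapped, and the log2 change of 0.19 (95% interval -0.38 to 0.75) became -0.02 without control replicate 2. A row described only as a nuclear hormone receptor (TRINITY_DN52396_c0_g1) had 1.88, 1.05 and 1.06 TPM in treated and 1.84, 0.24 and 1.86 TPM in control insects. Control replicate 2 was far below the other 5 libraries there. Its log2 change was 0.09 (95% interval -0.84 to 1.02), and -0.31 without that library. A further row of the same description (TRINITY_DN11741_c0_g1) had 1.71, 0.33 and 0.89 TPM in treated and 1.48, 0.36 and 0.51 TPM in control insects, with replicate 1 highest and replicate 2 lowest in each group.

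HR38, an orphan receptor that can pair with ultraspiracle in Drosophila, was spread over 4 rows, of which 1 was tested. That row (TRINITY_DN40415_c0_g1) had 1.46, 0.84 and 0.87 TPM in asarone libraries and 1.74, 0.58 and 1.52 TPM in control libraries, with a log2 change of -0.12 (95% interval -0.83 to 0.58). Its neighbour in the assembly (TRINITY_DN40415_c1_g1) had 0.41, 0.56 and 0.40 TPM in treated and 1.17, 0.33 and 0.74 TPM in control insects. Of the 2 partial rows, TRINITY_DN37550_c0_g1 was listed at 0 in 4 of the 6 libraries and at 3.30 TPM in control replicate 1, and TRINITY_DN30268_c0_g1 did not exceed 0.66 TPM. In all 4 rows the treated values overlapped the control values.

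Juvenile hormone synthesis gave 3 tested rows, among them the most abundant of the 41. Farnesyl pyrophosphate synthase (TRINITY_DN14811_c0_g1), which makes the precursor, had 5.55, 5.88 and 5.56 TPM in asarone libraries and 6.97, 4.40 and 6.22 TPM in control libraries. The treated values were almost equal and sat inside the control range (log2 change -0.02, 95% interval -0.47 to 0.43). Farnesol dehydrogenase (TRINITY_DN6431_c0_g1), which oxidises farnesol to farnesal, had 44.41, 46.51 and 40.56 TPM in treated and 41.46, 34.65 and 45.41 TPM in control insects (log2 change 0.12, 95% interval -0.24 to 0.48). Farnesoic acid O-methyltransferase (TRINITY_DN9054_c0_g1), named for the methylation of farnesoic acid in crustaceans, had 96.60, 114.13 and 111.30 TPM in treated and 100.81, 119.54 and 99.94 TPM in control insects. Its log2 change of 0.01 had the narrowest interval of the 19 rows, -0.33 to 0.35, and control replicate 2 was the highest library for it. Summed, the 3 rows gave 157 ± 9.99 TPM in treated and 153 ± 4.87 TPM in control insects (SD, n = 3 each), a ratio of 1.02.

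Binding and breakdown of the hormone were seen in 3 rows. The juvenile hormone binding protein (TRINITY_DN15629_c0_g1), a carrier of the hormone in haemolymph, had 27.23, 23.36 and 22.19 TPM in asarone libraries and 27.09, 15.47 and 22.62 TPM in control libraries. Apart from control replicate 2 the libraries of both groups covered nearly the same range, and the log2 change of 0.18 (95% interval -0.36 to 0.72) became -0.03 without it. Juvenile hormone epoxide hydrolase, which opens the epoxide ring and so inactivates the hormone, had 15.06, 15.91 and 12.74 TPM in treated and 9.72, 13.40 and 14.09 TPM in control insects in its main row (TRINITY_DN1592_c0_g1). Asarone replicates 1 and 2 were above all controls, but asarone replicate 3 was below control replicates 2 and 3. Its log2 change was 0.23 (95% interval -0.22 to 0.67), and ranged from 0.0734, without control replicate 1, to 0.32, without control replicate 3. The minor row (TRINITY_DN10556_c0_g1) was listed at 0 in asarone replicate 2 and in control replicate 1, and at 0.56 to 1.59 TPM elsewhere.

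Of the neuropeptide rows, both peptide precursors were tested, and 11 of the 12 receptor rows averaged under 1 TPM. Neuropeptide-like precursor 1 (TRINITY_DN1321_c0_g1), which is cut into several small peptides, had 11.27, 6.96 and 8.11 TPM in asarone libraries and 12.31, 4.17 and 8.77 TPM in control libraries. Replicate 1 was highest and replicate 2 lowest in both groups, and the log2 change was 0.13 (95% interval -0.77 to 1.04), or -0.25 without control replicate 2. The row described as neuropeptide FNPF (TRINITY_DN50213_c0_g1) had 3.57, 2.86 and 3.28 TPM in treated and 4.17, 3.05 and 3.33 TPM in control insects (log2 change -0.09, 95% interval -0.50 to 0.32). In a list of nervous tissue markers (synaptotagmins, syntaxin-1, neurexin, synapsin and complexin, 9 rows), the sum was 9.67, 7.32 and 7.74 TPM in asarone libraries and 17.55, 5.56 and 9.56 TPM in control libraries, so it too was lowest in control replicate 2. Synaptotagmin-4 made up a large part of the sum in control replicate 1. All 9 were above 0 in most libraries, 3 higher and 1 lower of 4 tested, with 0 passed. The part of this in the neuropeptide values was not tested.

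Receptors of peptide hormones filled 12 rows, of which 1 reached a mean of 1 TPM. That row, described as a lutropin-choriogonadotropic hormone receptor (TRINITY_DN9888_c0_g2), belongs to the leucine-rich repeat receptors named for the vertebrate gonadotropin receptors. It had 1.14, 0.55 and 0.71 TPM in asarone libraries and 0.55, 0.64 and 2.53 TPM in control libraries, so that control replicate 3 was more than the sum of the other controls (log2 change -0.22, 95% interval -1.20 to 0.76). Without control replicate 3, or without asarone replicate 1, the row averaged under 1 TPM and was not tested, and on leaving out each other library in turn its change was -0.43 to -0.12. The other row of this name (TRINITY_DN24951_c0_g4) had 0.42, 0.13 and 0.12 TPM in treated and 0.41, 0.43 and 0.41 TPM in control insects. The receptor of allatostatin-A, a peptide named for the inhibition of juvenile hormone synthesis in cockroaches (TRINITY_DN23101_c0_g1), had 1.23, 0.58 and 1.00 TPM in treated and 1.34, 0.46 and 1.04 TPM in control insects. Replicate 1 was highest and replicate 2 lowest in both groups, and the means were 0.937 and 0.947 TPM in treated and control insects. The neuropeptide F receptor (TRINITY_DN38098_c0_g1) was listed at 0 in 3 of the 6 libraries.

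The remaining 8 receptor rows are neuropeptide receptors coupled to G proteins that are named only by class and number, A1, A10, A24, A38 (2 rows), A41, B5 and B6, and had means of 0.218 to 0.863 TPM. Of the 22 rows under the filter, 3 had groups that did not overlap, all lower in treated insects. Among all rows under it 7.95% had such groups, and 5.01% had treated values wholly below the controls. Groups did not overlap in 584 of the 4304 untested rows with a best hit outside planthoppers, and in 442 of the 7130 with a planthopper hit. The first of the 3 was an A38 row (TRINITY_DN31330_c0_g4), which had 0.43, 0.27 and 0.12 TPM in asarone libraries and 0.78, 0.44 and 0.69 TPM in control libraries. The lowest control exceeded the highest treated value by a hundredth of a TPM, which is the step in which the values were given. The other A38 row (TRINITY_DN31330_c0_g2) was listed at 0 in 3 libraries of both groups and had its highest value, 0.48 TPM, in asarone replicate 2. B5 (TRINITY_DN31564_c0_g2) had 1.87, 0.72 and 0.30 TPM in treated and 0.71, 0 and 0 TPM in control insects, with overlap between asarone replicate 3 and control replicate 1. A1 (TRINITY_DN16541_c0_g5) had 0.35, 0.25 and 0.53 TPM in treated and 0.18, 0.07 and 0.26 TPM in control insects.

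**Figure D4:**
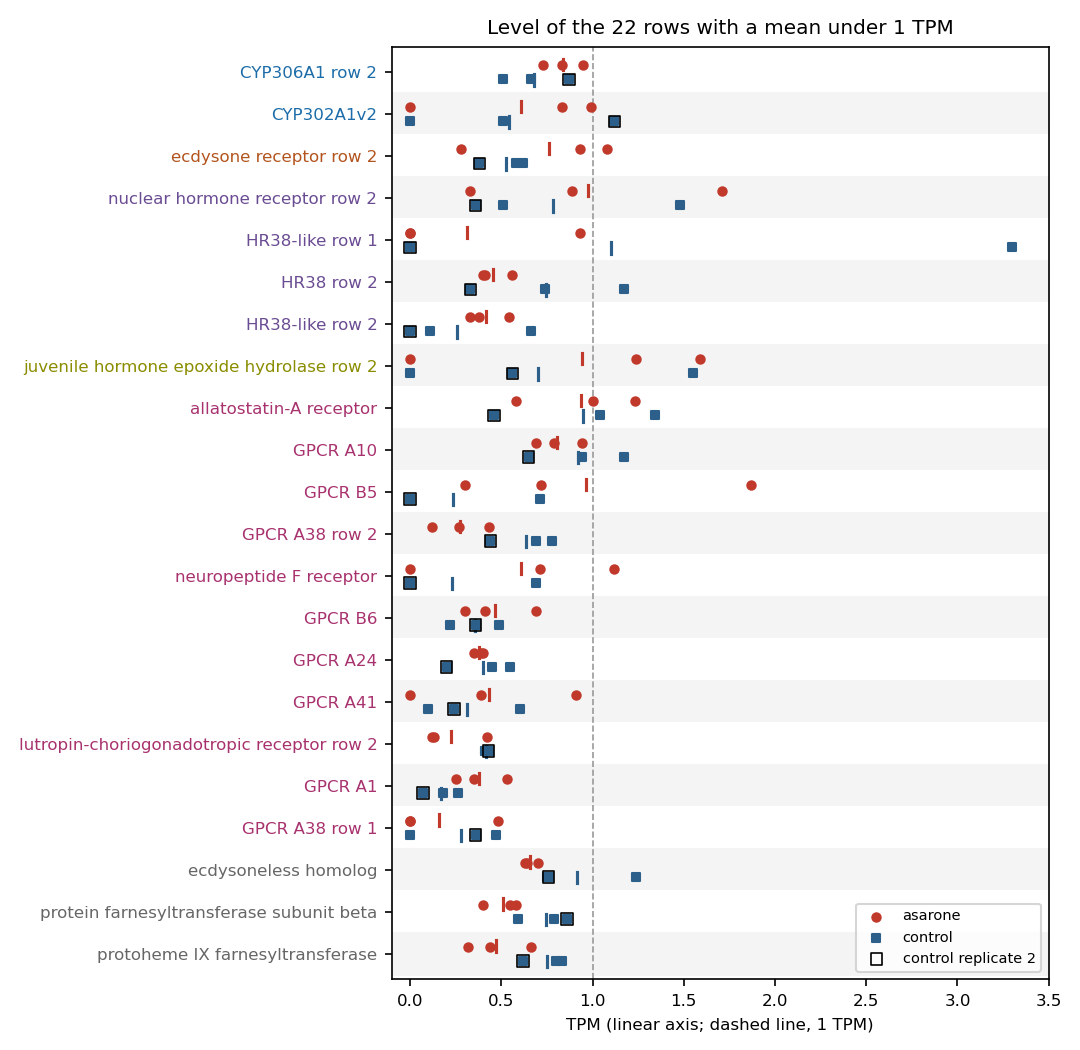
TPM (linear axis) of the 22 rows with a mean under 1 TPM, which were not tested, with asarone libraries as circles above control libraries as squares, group means as ticks and a black outline for control replicate 2; the dashed line marks 1 TPM. The groups do not overlap in 3 rows, an A38 receptor, an ecdysoneless homolog and a protein farnesyltransferase subunit, all lower in asarone.

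The last 5 rows carry a matching word and were placed in none of the hormone roles. Ecdysoneless, named for a Drosophila mutant with little ecdysone and known as a factor of pre-mRNA splicing, had 4.51, 4.47 and 5.27 TPM in asarone libraries and 4.36, 3.90 and 4.45 TPM in control libraries in its main row (TRINITY_DN2489_c0_g1). All treated values were above all controls, by 0.02 TPM at the nearest; this was the only tested row of the 19 whose groups did not overlap, where 8.66% of all tested rows had such groups, 4.53% with treated values above. Its log2 change was 0.13 (95% interval -0.22 to 0.49, limma adjusted p = 0.98). A further row of the same description (TRINITY_DN34477_c0_g1) had 2.93, 0.56 and 2.33 TPM in treated and 3.49, 1.39 and 4.96 TPM in control insects, with replicate 2 lowest in both groups and the widest interval of the 19 (log2 change -0.55, 95% interval -1.69 to 0.59). Leaving out asarone replicate 2 gave -0.14, and leaving out control replicate 2 gave -0.92. With the 2 rows summed the log2 change was -0.13, opposite in sign to that of the main row.

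The other 3 of these rows had best hits outside the arthropods and had lower means in treated insects. An ecdysoneless homolog with a sea anemone as best hit (TRINITY_DN13698_c0_g2) had 0.63, 0.64 and 0.70 TPM in asarone libraries and 0.75, 0.76 and 1.24 TPM in control libraries. A beta subunit of protein farnesyltransferase, the enzyme that attaches farnesyl to proteins, with a feather star as best hit (TRINITY_DN16886_c0_g1), had 0.40, 0.55 and 0.58 TPM in treated and 0.59, 0.86 and 0.79 TPM in control insects. In both, every treated value was below every control. In the protein farnesyltransferase row the nearest values, 0.58 and 0.59 TPM, differed only by the step in which the values were given. Protoheme IX farnesyltransferase, an enzyme of heme A synthesis with a snail as best hit (TRINITY_DN48858_c0_g1), had 0.32, 0.66 and 0.44 TPM in treated and 0.83, 0.62 and 0.80 TPM in control insects, with overlap. With no filter the smallest unadjusted limma p of these 3 was 0.173. Over the whole table, 71.1% of the 2140 tested rows with a best hit outside planthoppers had a negative change, with a median log2 change of -0.13, against 29.6% of the 12228 with a planthopper hit, with a median of 0.10. The origin of the rows without planthopper hits was not tested.

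Genes upstream and downstream of the hormones, in lists of words chosen with earlier results of these data known, had 0 rows past the threshold and 0 with an unadjusted limma p under 0.05. Over all tested rows 62.8% were higher, with a median log2 change of 0.08, and 3.47% had an unadjusted limma p under 0.05. The list for the mevalonate pathway, which supplies farnesyl pyrophosphate, had 3 higher and 3 lower of 6 tested rows. It includes acetyl-CoA acetyltransferase rows described as mitochondrial (TRINITY_DN295_c0_g1 and TRINITY_DN7763_c0_g1). Of 2 tested rows of hydroxymethylglutaryl-CoA synthase, an early enzyme of the pathway, the more abundant (TRINITY_DN3978_c0_g1) had 15.43, 25.98 and 18.34 TPM in treated and 19.49, 13.90 and 17.79 TPM in control insects, with a log2 change of 0.19. The other (TRINITY_DN15915_c0_g1), with a fly as best hit, had a log2 change of -0.21. The reductase that follows (TRINITY_DN5325_c0_g1) had 4.37, 3.42 and 3.77 TPM in treated and 4.80, 1.77 and 3.58 TPM in control insects. Isopentenyl-diphosphate isomerase (TRINITY_DN53136_c0_g1), a step before farnesyl pyrophosphate, had 1.93, 2.53 and 2.28 TPM in treated and 2.91, 3.37 and 2.95 TPM in control insects. Every treated value was below every control, as in 4.14% of all tested rows, and its log2 change was -0.33 (SE 0.16, limma adjusted p = 0.98).

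Coactivators, corepressors and subunits of the Mediator complex had 6 higher and 7 lower of 13 tested rows, with a median log2 change of -0.02. They include rows not named for nuclear receptors, such as CREB-regulated transcription coactivator 1 (TRINITY_DN17787_c0_g1) and REST corepressor 3 (TRINITY_DN30443_c0_g1). A row described as nuclear receptor coactivator 2-like (TRINITY_DN52235_c0_g1), with a mollusc as best hit, was at 20.04 TPM in asarone replicate 2 and listed at 0 in the other 5 libraries. Over the whole table, rows found almost only in 1 library numbered 560 for asarone replicate 2 and 100 to 228 for each other library. Products that ecdysteroids or juvenile hormone control had 5 higher and 8 lower of 13, with a median of -0.02. Over all tested rows, by comparison, 62.8% were higher and the median was 0.08. Bursicon, the peptide pair that hardens the cuticle after a moult, had 7.33 ± 0.525 TPM in treated and 7.38 ± 1.18 TPM in control insects for its alpha subunit (TRINITY_DN14881_c0_g1). The beta subunit (TRINITY_DN3775_c0_g1) had 10.6 ± 1.65 TPM in treated and 12.3 ± 1.14 TPM in control insects (SD, n = 3 each). The vitellogenin receptor, through which eggs take up yolk protein, had 1.83 ± 0.0945 TPM in treated and 1.38 ± 0.417 TPM in control insects (TRINITY_DN15698_c0_g4). The list for peptide hormones and their processing had 2 higher and 1 lower of 3 tested rows, among them prohormone-1 (TRINITY_DN2910_c0_g1), named as a precursor. Sterol handling gave 1 tested row, an oxysterol-binding protein (TRINITY_DN727_c0_g1), at 7.88 ± 1.25 TPM in treated and 7.05 ± 2.23 TPM in control insects.

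Stage and sex set the level of many of these genes and are not given, so the levels of marker lists are given beside them; their part in the values was not tested. Cuticle and chitin genes (66 rows, some also among the products above) summed to 7118.5 TPM in asarone replicate 2, the lowest library, and to 11857.9 to 18744.5 TPM in the other 5. Of their 52 tested rows 13 had a positive and 39 a negative change, beside 62.8% positive over all tested rows. An unadjusted limma p under 0.05 was reached by 4 of the 52, beside 3.47% of all tested rows, and 0 passed. The testis and axoneme list (18 rows) summed to 16.83 to 29.33 TPM in asarone libraries, within the range of 12.22 to 33.05 TPM in control libraries; 8 of its 8 tested rows had a positive change and 0 passed. The list for yolk and eggshell held 3 rows, mostly a chorion peroxidase, with sums of 27.18, 12.80 and 19.78 TPM in asarone libraries and 32.65, 8.97 and 15.57 TPM in control libraries, and its 2 tested rows, both higher, did not pass. Muscle genes (29 rows) summed to 2947, 1930 and 2205 TPM in asarone libraries and 2878, 2014 and 2557 TPM in control libraries, with 7 higher and 12 lower of 19 tested rows and 0 passed. In the muscle and yolk lists, as in neuropeptide-like precursor 1 and the allatostatin-A receptor, replicate 1 was highest and replicate 2 lowest in both groups.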

How the data were processed

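The authors deposited a table of 59004 assembled genes with values for 3 asarone and 3 control libraries, with 2 decimal places. Although the table's name says FPKM, the 6 library columns have equal sums within rounding, so the deposited values were read as TPM and the planned test was applied to log2(TPM + 1) unchanged. Tools named in the submitters' processing notes are StringTie 1.3.4d, HISAT2 2.0.4 and cutadapt 1.9, with DESeq2 and edgeR, but their roles and any build are not given. Per the labels' protocols, second strands were marked with uracil, so libraries kept strand. TPM is relative: a change in abundant transcripts shifts all others. An exact 0 can be a failed estimate. Assembled rows of near-identical genes can share reads, so rows of one gene are uncertain singly.

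The 24816 rows averaging 1 TPM or more over the 6 libraries were fitted with limma 3.58.1 in R 4.3.3 (eBayes with trend and robust; two-sided; Benjamini-Hochberg over all tested rows). Changes are on the log2(TPM + 1) scale and understate those of low rows. Roles were assigned by hand from the descriptions. The rule for naming took, in each role group, the most abundant row and the tested row of smallest p, every row of a listed hormone gene averaging 1 TPM or more, and tested rows with an unadjusted p under 0.05 or with groups that did not overlap. Other rows named, and those named from the lists, were chosen after their values were seen. The members and lists were chosen with earlier results of these data known. The fit was tested on simulated data with changes placed in 200 of the more abundant rows. It called 28.1% of simulated log2 changes of 1, 70.4% of those of 2 and 85.6% of those of 3. Many changes of a doubling would thus be missed. Noise was drawn for each row separately, and no change was placed in the less abundant rows. The rates therefore do not extend to those rows or to shifts shared across a library. Alternatives were other pseudocounts, filters and scalings, a replicate block, another variance model, each library left out, and 2 added after the data were seen: summing rows of one description and leaving out the libraries numbered 2. No 2 libraries held the same set of values. Figures were drawn with matplotlib 3.10.9.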

Additional observations from a re-analysis of the deposited data

How the results depend on the processing

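Rows of the hormone system past the threshold stayed at 0 under every alternative run, with a smallest adjusted limma p of 0.675. The count over all rows was 1 and became 0 with a pseudocount of 0.1, no filter, a minimum mean of 5 TPM, scaling by the median of ratios, quantile normalization, a replicate block, the libraries numbered 2 left out, and without any single library (0 to 0). The count of rows of the system with an unadjusted limma p under 0.05 was 0 and ranged from 0 to 1 on leaving out single libraries. It became 1 after scaling by the median of ratios (CYP306A1) and under the replicate block (the second ecdysoneless row). The share of all tested rows with such a p was 3.47% in the main fit, 4.01% after that scaling and 4.19% under the block. On leaving out single libraries this share ranged from 3.16% to 6.10%. Positive changes numbered 13 of 19, 25 of 41 with no filter and 8 of 23 with the libraries numbered 2 left out. They numbered 6 to 15 on leaving out single libraries, where the median ranged from -0.17 to 0.18. Over all rows 62.8% were positive in the main fit, 54.2% with no filter and 46.9% with the libraries numbered 2 left out. On leaving out single libraries the share over all rows ranged from 43.3% to 68.8%, and their median from -0.03 to 0.18. The cause of these moves was not tested. Deviations of same-numbered libraries correlated at 0.157 for number 1, 0.0814 for number 2 and -0.035 for number 3 over tested rows. The libraries numbered 1 and 2 correlated best with their own number and those numbered 3 did not, so the numbers were not taken to pair the samples.

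Of 294 fitted changes of single rows under alternatives, 265 kept their sign and 29 turned, in 13 of 19 rows. The other filters, the replicate block and the other variance model leave a row's fitted change as it was, so signs there could not turn. Nor could they for genes of a single row when rows of one description were summed. Both ecdysoneless rows were then compared with the same summed value. The share that kept its sign is therefore no measure of stability. After median-of-ratios scaling farnesoic acid O-methyltransferase turned to -0.10, and after quantile normalization the nuclear hormone receptor row to -0.0043. With the libraries numbered 2 left out the changes were -0.36 for the ecdysone receptor, -0.0078 for E74, -0.22 for HR3, -0.23 for the nuclear hormone receptor, -0.031 for farnesol dehydrogenase, -0.0097 for the juvenile hormone binding protein and -0.11 for neuropeptide-like precursor 1. With rows of one description summed, ecdysoneless was at -0.13. On leaving out single libraries the changes ranged from -0.17 to 0.37 for E74, -0.24 to 0.36 for the ecdysone receptor, -0.17 to 0.33 for HR3, -0.0172 to 0.34 for FTZ-F1 beta, -0.31 to 0.29 for the nuclear hormone receptor, -0.37 to 0.0305 for HR38, -0.0368 to 0.0922 for farnesoic acid O-methyltransferase, -0.19 to 0.0934 for farnesyl pyrophosphate synthase, -0.0333 to 0.35 for the juvenile hormone binding protein, -0.25 to 0.44 for neuropeptide-like precursor 1 and -0.16 to 0.0133 for neuropeptide FNPF. With 3 libraries a group and unknown depth, changes of single rows smaller than their intervals could not be seen.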

Other observations

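Of the nuclear receptors that the choice of words did not catch, picked after their values were seen, the estrogen-related receptor (TRINITY_DN1045_c0_g1), a regulator of carbohydrate metabolism in Drosophila, had 6.62, 5.20 and 4.78 TPM in asarone libraries and 7.27, 3.18 and 4.98 TPM in control libraries. Seven-up (TRINITY_DN8588_c0_g1), an orphan receptor of neural development, had 2.17 ± 0.368 TPM in treated and 1.47 ± 0.396 TPM in control insects (SD, n = 3 each). All treated values of seven-up were above all controls, as in 4.53% of all tested rows, with a log2 change of 0.36 (SE 0.20, limma adjusted p = 0.98). Apart from the receptors, the 2 rows described as kruppel-like protein 1, also picked after their values were seen, had at most 0.97 TPM in any library.

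The level of CYP306A1 relative to CYP302A1 within a library, a ratio that no scaling of the library alters, was 9.17, 7.60 and 7.72 in asarone replicates 1, 2 and 3 and 29.7, 8.04 and 11.4 in control replicates 1, 2 and 3. Control replicate 1 stood alone, and the groups overlapped. The same library had the highest chitin deacetylase 2 (TRINITY_DN3214_c0_g1), at 248.95 TPM, against 157.98, 170.29 and 154.81 TPM in asarone libraries and 160.78 and 184.24 TPM in the other controls. It also had the highest value of a probable chitinase 10 (TRINITY_DN3308_c0_g1), at 84.00 TPM, against 58.86, 44.68 and 41.01 TPM in asarone libraries and 28.65 and 46.61 TPM in the other controls. Other chitinase rows went the opposite way: control replicate 1 had the lowest value of the 6 libraries for chitinase 10 rows TRINITY_DN204_c0_g3, at 11.49 TPM, and TRINITY_DN2662_c0_g1, at 0.97 TPM, and for the chitinase row TRINITY_DN10462_c0_g1, at 0.22 TPM. These rows were picked after their values were seen, and no test was made of their joint behaviour.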
